A study of Arabidopsis thaliana with 20 samples.

Results

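Transgenic Arabidopsis seedlings that overexpress human ALKBH5 were compared, as 4 lines together, with untransformed Col-0, and features were kept whose change against Col-0 had the same sign in every line. In the RNA table, 20306 of 30613 genes and transposable elements met this rule, 19877 of them higher in all 4 lines (64.9% of the table) and 429 lower (1.4%). In the m6A table, 2225 of 2291 peaks met it, 2222 of them lower (97%) and 3 higher (0.131%). The 4 comparisons share the same Col-0 libraries, so the 4 signs of a feature are not independent.

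The material was chromatin-associated RNA, the RNA that stays with the chromatin pellet when nuclei are fractionated, from whole 10-day-old seedlings grown on Murashige and Skoog medium with sucrose at 21 °C under 16 h light and 8 h dark. Fragmented RNA was sequenced before (input) and after (IP) pull-down with an antibody to N6-methyladenosine (m6A), a method called MeRIP-seq. Each of 5 genotypes, all in the Col-0 background, had 2 input and 2 IP libraries, 20 in all. Col-0 carried no transgene. The line called FL overexpressed full-length ALKBH5 (labelled OE ALKBH5 FL), and the line called inactive FL overexpressed the same protein with the H204A substitution in its catalytic site (OE ALKBH5 FL H204A). The line called del-cIDR lacked the C-terminal intrinsically disordered region (OE ALKBH5 del-cIDR), and the inactive del-cIDR line carried that deletion together with H204A (OE ALKBH5 del-cIDR H204A). The labels name neither the promoter of the transgene, nor the number of plants per library, nor whether a genotype stands for more than 1 transformant, and the level of the transgene itself was not analysed here. Plants were grown in a chamber or in a room, and the labels do not say which genotype grew where or at which hour each was harvested.

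m6A is the most abundant internal mark of messenger RNA. A writer complex around the methyltransferase MTA deposits it, YTH-domain proteins such as those of the ECT family bind it, and demethylases of the ALKBH family remove it. ALKBH5 is one of the demethylases of animals, and its H204A form, with a changed iron-binding residue, is used as a control without activity. A change found in all 4 lines is therefore one that active and inactive forms have in common.

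RNA values were the deposited signal of the inputs, in which the ERCC spike-in rows summed to between 109313 and 110569 in every library. The other spike-in rows of the inputs varied more, the m6A control from 79342 to 98473 and the unmodified control from 231201 to 252644. m6A values were a deposited ratio per peak, with the m6A spike-in at 10.579 in every IP library. Both were analysed as log2(value + pseudocount), with pseudocounts of 6.94 and 0.542, so fold changes of low features are understated. Sequencing depth is unknown, no counting interval could be given, and levels of different genes are not compared, since the signal is not stated to be per length. All changes below are log2 changes on this scale against the mean of the 2 Col-0 libraries, and a feature was called where the mean of the 4 lines differed from Col-0 in limma with a Benjamini-Hochberg adjusted p under 0.05 over the whole table. What separates the 2 libraries of a genotype is not stated, so p-values measure only the spread between these libraries, which may be technical. In bulk seedlings, fewer cells of a type and less RNA per cell cannot be told apart.

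RNA signal was higher in the transgenic lines for most of the table. Of the features with a shared sign, 17252 were called higher (56.4% of the table) and 336 were called lower (1.1%). Regardless of sharing, 63.6% were called higher by the mean of the lines and 2.84% lower. Taken alone, FL gave 75.5% higher and 1.47% lower, del-cIDR 65.5% and 1.85%, inactive del-cIDR 32.4% and 7.84%, and inactive FL 16.9% and 3.12%. The median change over all 30613 features was 0.67 for FL, 0.22 for inactive FL, 0.56 for del-cIDR and 0.31 for inactive del-cIDR, with a mean over lines of 0.45. The median of the 8 transgenic libraries lay 0.53 above that of the 2 Col-0 libraries (exact permutation test, two-sided, p = 0.0222, the smallest p that 45 assignments allow), and all 8 were above both of Col-0. This p takes the 2 libraries of a genotype as independent, whereas in the 2-group fit with the line as a random block their correlation was 0.74. With the genotype as the unit 5 assignments exist, and the smallest p is 0.2.

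This shift is a property of the whole table, and calls depend on whether it is kept. With library medians set equal, 3104 features were called higher in all 4 lines (10.1%) and 8495 lower (27.7%), so the share of higher calls went from 98.1% to 26.8%. All 336 features called lower without centring were still called lower with it. Every transgenic library median was above both of Col-0, so centring enlarges each fall and is no check of these 336 calls. Of the 17252 called higher, 3104 were still called higher. With the line taken as a random block, which asks for more than the spread within a line, 667 were called higher (2.18%) and 11 lower (0.0359%), against 5039 and 26 in a fit of 2 groups without that block. The p-values of the main test measure the spread of libraries within a genotype and not the spread between lines.

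Called in each of the 4 lines separately were 3792 features higher (12.4%) and 89 lower (0.291%). In 10913 features (35.6%) every transgenic library exceeded both Col-0 libraries, and in 199 (0.65%) every one lay below both. Among the 17252 called higher, the median change was 1.06 for FL, 0.40 for inactive FL, 0.76 for del-cIDR and 0.54 for inactive del-cIDR. The largest of the 4 changes was that of FL in 11543 of them. The features called lower had another order, with medians of -0.16 for FL, -0.30 for inactive FL, -0.20 for del-cIDR and -0.65 for inactive del-cIDR, and the largest fall was that of inactive del-cIDR in 277 of 336. A moderated F test among the 4 lines, which does not use Col-0, called a difference in size for 12705 of the features called higher (73.6%) and 306 of those called lower (91.1%), beside 72.8% of the whole table. Both together were 42.5% of the table.

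The size of the rise went with the level of the feature. Features were split into 10 classes by their mean over all 10 libraries, and the median of the average change was between 0.57 and 0.69 in the 5 lowest classes and was 0.14 in the highest. The FL line varied most along the classes, from a median of 1.19 in the third class to 0.23 in the tenth. The low end of the libraries moved with this. The 5th percentile of the signal was 3.89 and 3.42 for Col-0, 12.3 and 16.0 for FL, 5.27 and 7.91 for inactive FL, 8.82 and 12.1 for del-cIDR, and 6.47 and 7.98 for inactive del-cIDR. With the 5th percentiles set equal, 10808 of 29551 features were called higher and 486 lower. Without the 2 FL libraries the counts were 13261 and 683, but there only the remaining lines needed a shared sign, which is a looser rule. Whether the low end of each library takes part in the rise of low features was not tested.

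**Figure D1:**
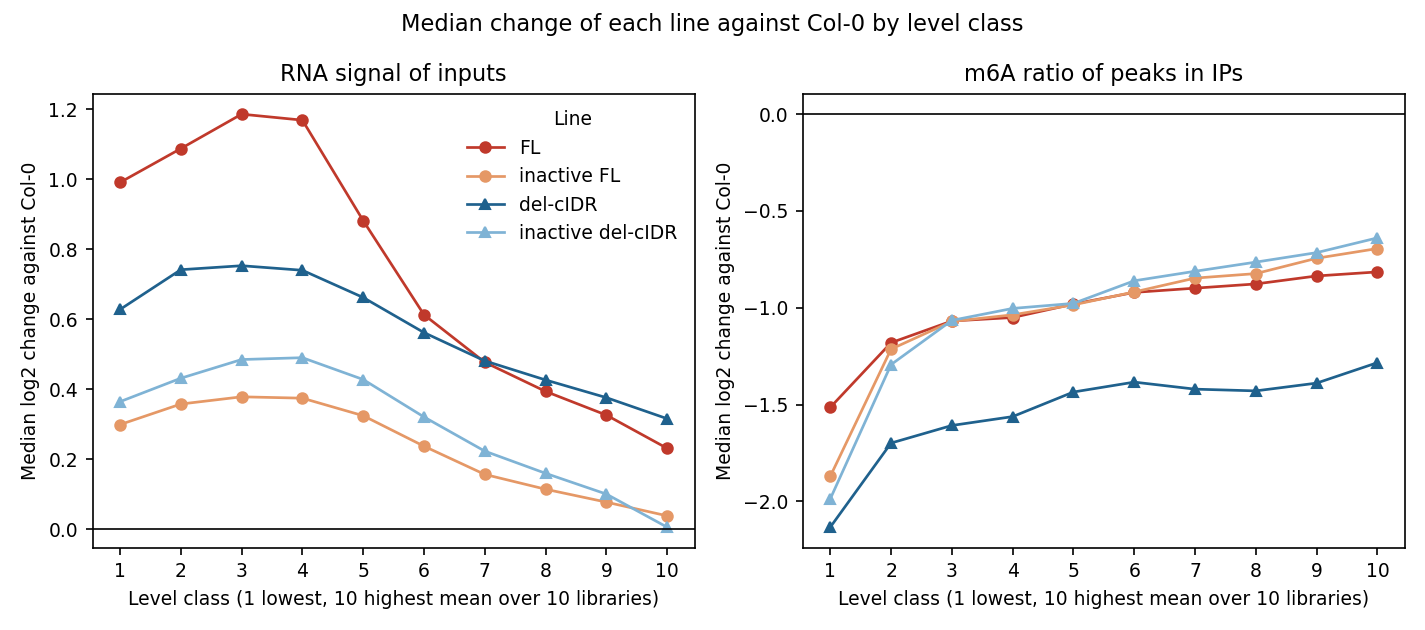
Median log2 change of each line against Col-0 (vertical axes) in 10 classes of mean level (horizontal axes) for RNA signal of the inputs (left) and the m6A ratio of the IPs (right). RNA rises are largest in FL and in low classes, where FL reaches 1.19, and the m6A falls are largest in the lowest class, with an average of -1.88.

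Pseudogenes and transposable elements had larger shares of shared rises than protein-coding genes. Of 2783 pseudogenes, 2276 (81.8%) were called higher in all 4 lines and 1 was called lower. Of 4050 transposable elements, 2695 (66.5%) were called higher and 21 lower, and of 22841 protein-coding genes 11936 (52.3%) were called higher and 296 lower. The median signal was 26.1 for pseudogenes, 25.9 for transposable elements and 123 for protein-coding genes, so these kinds also differ in level class. After centring, 641 of the 2783 pseudogenes, 763 of the 4050 transposable elements and 1657 of the 22841 protein-coding genes were still called higher. In the same order, 42, 346 and 7946 were then called lower. Of all features, 10.1% were called higher after centring and 27.7% lower. Organelle transcripts stood apart in count: of 132 plastid-encoded features 17 were called higher and 6 lower, and of 14 mitochondria-encoded features 2 were higher and 3 lower.

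Several of the genes with the largest rise common to all lines respond to stress, wounding or cold. The 12 at or above the median level with the largest smallest-of-4 change were AT3G00330, BPS3, SRO5, RRTF1, CYP94B3, DDF1, LOX4, FBS1, AT2G24600, CRK10, AT5G19240 and AT3G02840. In each of them the 8 transgenic libraries lay above both Col-0 libraries, which the choice required. Their smallest change was 2.05 (AT3G02840), and CML38, the next in order, had 2.03. All 12 remained called higher under every other scaling, fit and left-out library tried.

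SRO5, of the family of the oxidative stress protein RCD1, stood at 47.1 and 45.1 for Col-0, 602 and 604 for FL, 461 and 467 for inactive FL, 386 and 398 for del-cIDR, and 543 and 533 for inactive del-cIDR. The 2 libraries of each genotype were close to each other, and the lowest transgenic library was far above Col-0. Its average change was 3.24 ± 0.075 (SE, limma adjusted p = 1.7e-39), from 2.91 for del-cIDR to 3.52 for FL.

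RRTF1, an ERF transcription factor that responds to redox stress, stood at 22.6 and 36.0 for Col-0, 241 and 249 for FL, 199 and 211 for inactive FL, 173 and 205 for del-cIDR, and 196 and 191 for inactive del-cIDR. It rose by 2.59 ± 0.119 (limma adjusted p = 8.59e-26). Its changes ran only from 2.45 to 2.82, and a difference among lines was not called (adjusted p = 0.0888 in the F test of limma).

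CRK10, a cysteine-rich receptor-like kinase, had the most even change of the 12. It stood at 309 and 296 for Col-0, 1427 and 1341 for FL, 1378 and 1479 for inactive FL, 1351 and 1338 for del-cIDR, and 1408 and 1400 for inactive del-cIDR. All 8 transgenic libraries fell in a narrow band more than 4 times as high as Col-0. The 4 changes were 2.17, 2.21, 2.13 and 2.19 in that order. The folds ran from 4.37 to 4.64, and no difference was called among lines (limma adjusted p = 0.573).

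FBS1, an F-box gene induced by stress, was the least even of the 12. It stood at 67.5 and 49.97 for Col-0, 491 and 508 for FL, 291 and 297 for inactive FL, 610.1 and 629 for del-cIDR, and 529 and 519 for inactive del-cIDR. The rise was 3.27 for del-cIDR and 2.21 for inactive FL, and the lines differed (limma adjusted p = 2.33e-12).

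Jasmonate genes appeared on both the synthesis and the breakdown side. LOX4, a 13-lipoxygenase at the start of jasmonate synthesis, stood at 273 and 309.8 for Col-0, 2629 and 2566 for FL, 1792 and 1951 for inactive FL, 1396 and 1496 for del-cIDR, and 1804 and 1833 for inactive del-cIDR, an average change of 2.67 ± 0.048 (limma adjusted p = 1.34e-44). CYP94B3, which oxidises the active conjugate jasmonoyl-isoleucine, stood at 185 and 189 for Col-0, 1687 and 1603 for FL, 1282 and 1251 for inactive FL, 1131 and 1034 for del-cIDR, and 1078 and 1030 for inactive del-cIDR, a change of 2.68 ± 0.0522 (limma adjusted p = 5.41e-43). Both were highest in FL.

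DDF1, an AP2 transcription factor related to the CBF cold regulators, stood at 49.3 and 43.0 for Col-0, 326 and 339.5 for FL, 266 and 290.1 for inactive FL, 333 and 303 for del-cIDR, and 379 and 354 for inactive del-cIDR. It was highest in inactive del-cIDR, with changes from 2.42 to 2.82. BPS3, of the BYPASS family, changed by 2.95 to 3.44, from 20.5 and 26.5 for Col-0 to between 209 and 331 in the transgenic libraries. The unnamed locus AT3G00330, a non-coding RNA in the gene table, went from 14.4 and 14.0 to between 143 and 260.5, and the 3 remaining genes AT2G24600, AT5G19240 and AT3G02840 changed by 2.05 to 2.95.

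**Figure D2:**
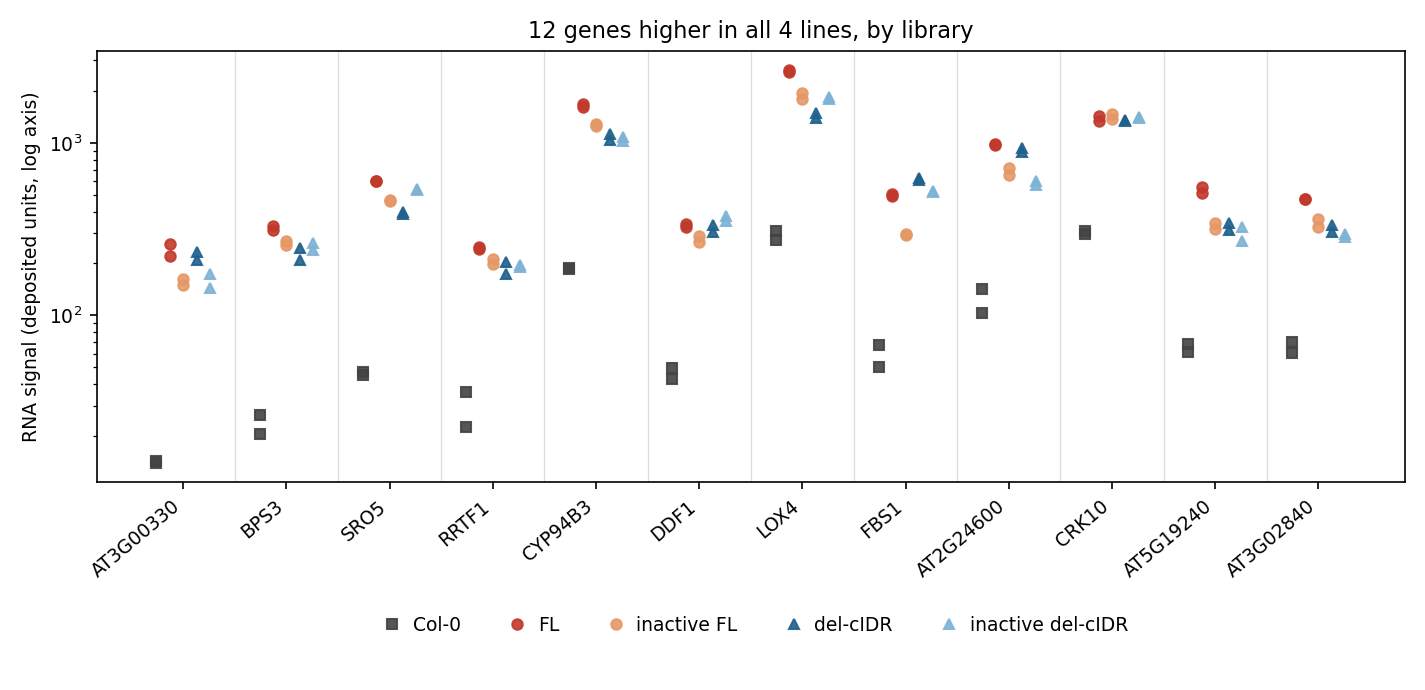
RNA signal per library (vertical axis, deposited units, log scale) of the 12 genes with the largest rise common to all 4 lines (horizontal axis), 2 libraries per genotype, 1 point per library. All transgenic points lie above the Col-0 squares, and CRK10 shows the 8 transgenic libraries at nearly one level, from 1338 to 1479.

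Genes of named pathways were counted by list. The lists were chosen with earlier results of these data known, and are read against the 56.4% of all features called higher, the 10.1% called higher after centring and the overall median of 0.45. Lists for which 0 genes were called lower by limma also had 0 with a shared fall at an unadjusted p under 0.05. In the rapid stress and touch list, 22 of 26 genes were called higher in all lines and 1 lower, with a median average change of 1.41. After centring 20 of the 26 were still called higher and 4 were called lower, and with the line as a random block 19 were, beside 2.18% of all features. The median by line was 1.80 for FL, 1.01 for inactive FL, 1.43 for del-cIDR and 1.2003 for inactive del-cIDR.

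TCH3, a calmodulin-like gene first found through touch, stood at 478 and 492 for Col-0, 2709 and 2486 for FL, 1362 and 1486 for inactive FL, 2596 and 2825 for del-cIDR, and 1732 and 1834 for inactive del-cIDR. It rose by 2.07 ± 0.0459 on average (limma adjusted p = 2.1e-40). SZF1, a zinc finger gene induced by salt, stood at 3707 and 3541 for Col-0, 16690 and 16919 for FL, 10355 and 10596 for inactive FL, 12577 and 12880 for del-cIDR, and 10738 and 10900 for inactive del-cIDR. In both genes the active line of each pair was higher than the inactive one, and no transgenic library reached down to Col-0.

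Of 31 genes of salicylic acid and immune response, 24 were called higher and 0 lower, with a median of 0.83, and 13 were still called higher after centring. WRKY33, a transcription factor of defence against necrotrophs, stood at 918 and 861 for Col-0, 5470 and 5295 for FL, 3395 and 3700 for inactive FL, 4086 and 4197 for del-cIDR, and 3183 and 3157 for inactive del-cIDR, a change of 2.15 ± 0.0382 (limma adjusted p = 7.84e-45). WRKY40, a defence regulator of the same family, rose by 2.001 ± 0.0397, most in FL (2.50) and least in inactive del-cIDR (1.52).

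Of 25 jasmonate and wounding genes, 20 were called higher and 1 lower, with a median of 0.81, and 9 stayed higher after centring. LOX3, another 13-lipoxygenase, stood at 243 and 271 for Col-0, 1493 and 1488 for FL, 1228 and 1299 for inactive FL, 1025 and 1089 for del-cIDR, and 1742 and 1701 for inactive del-cIDR. OPR3, which reduces the jasmonate precursor OPDA, changed by 1.37 for FL, 1.203 for inactive FL, 1.03 for del-cIDR and 2.03 for inactive del-cIDR. Both genes had their highest libraries in inactive del-cIDR, unlike LOX4.

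Of 31 cold and abscisic acid genes, 22 were called higher and 0 lower, with a median of 0.73, and 10 stayed higher after centring while 7 were then lower. ZAT10 and ZAT12 are in this list and, as STZ and RHL41, also in the rapid stress and touch list. The counts of these lists are therefore not independent. CBF2, a master regulator of cold acclimation, stood at 169.8 and 130.2 for Col-0, 977 and 996 for FL, 546 and 600.5 for inactive FL, 1216 and 1220 for del-cIDR, and 1032 and 1046 for inactive del-cIDR. CBF1, a close copy in the same gene cluster, rose by 2.35, 1.78, 2.81 and 1.83 in the same order of lines. How reads that match both copies were assigned is not given in the sources used here, so the split between them is uncertain. LTI78, a target of the CBF factors, changed by 0.86, 1.06, 1.92 and 0.90, and was highest in del-cIDR. In the heat list 13 of 18 genes were called higher, with a median of 0.61, but after centring 3 were higher and 4 lower, and 1 was higher with the line as a random block. DREB2A, a regulator of drought and heat response, rose by 1.48 ± 0.0486.

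Of 38 nuclear genes of photosynthesis, 24 were called higher and 0 lower, and after centring 4 were higher and 0 lower. The size differed by line. The list's median was 0.09 for FL, 0.18 for inactive FL, 0.89 for del-cIDR and 1.38 for inactive del-cIDR. LHCB3, a chlorophyll-binding protein of the photosystem II antenna, stood at 2420 and 2259 for Col-0, 5190 and 5001 for FL, 4832 and 5079 for inactive FL, 10292 and 10765 for del-cIDR, and 16500 and 16710 for inactive del-cIDR. The FL pair was level, and both del-cIDR lines were higher than the FL pair. CAB2, an LHCB1 antenna gene with near-identical copies that may share its reads, changed by 1.36, 1.36, 2.21 and 2.91, the same order.

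Clock genes changed in both directions. Of 25 tested, 8 were called higher and 2 lower, with a median of 0.02, below the overall 0.45, and after centring 4 were higher and 12 lower. PRR9, a morning pseudo-response regulator, stood at 50.2 and 47.4 for Col-0, 186 and 172 for FL, 152 and 157 for inactive FL, 246 and 219 for del-cIDR, and 253 and 232 for inactive del-cIDR, a rise of 1.88 ± 0.107 (limma adjusted p = 1.22e-21). COR27, which acts on both the clock and freezing tolerance, stood at 1086 and 1097 for Col-0, 897 and 849 for FL, 883 and 936 for inactive FL, 942 and 926 for del-cIDR, and 141 and 134 for inactive del-cIDR. Its fall was small in 3 lines, from -0.32 to -0.22, and -2.93 in the fourth. Of 12 genes of darkness and sugar starvation, 1 was called higher and 2 lower, with a median of -0.17, and BT2, a BTB scaffold protein repressed by sugar, fell by 0.57 on average.

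Of 17 genes of dividing cells, 16 were called higher and 0 lower, with a median of 0.80, and 5 were still called higher after centring but 0 with the line as a random block (8 at an unadjusted p under 0.05 in limma). HIK, a kinesin of the cell plate, stood at 71.9 and 69.7 for Col-0, 182 and 177 for FL, 95.8 and 101 for inactive FL, 163 and 182 for del-cIDR, and 189 and 220.2 for inactive del-cIDR. The inactive FL libraries were nearest to Col-0. The summed signal of the 17 genes was 867 to 932 for Col-0, 1612 to 1637 for FL, 1113 to 1223 for inactive FL, 1792 to 2013 for del-cIDR and 1823 to 1908 for inactive del-cIDR.

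Markers of root, vasculature, epidermis and seed were summed per library. The RNA table holds 0 values of 0 for any feature, so a signal above 0 does not show that a marker was expressed. The 17 root markers summed to 1060 to 1064 for Col-0, 1703 to 1716 for FL, 1013 to 1173 for inactive FL, 1337 to 1369 for del-cIDR and 1079 to 1088 for inactive del-cIDR, and 7 of the 17 were called higher. The 11 vascular markers summed to 1662 to 1789 for Col-0 and to between 1861 and 2992 in the transgenic libraries, with 7 called higher, among them CESA4, a cellulose synthase of secondary walls, at 0.95 ± 0.0685. The 17 shoot epidermis and guard cell markers, with 3 called higher, summed to 12621 to 12643 for Col-0 and lay below this in FL and inactive FL and above it in both del-cIDR lines. The 13 seed storage markers, with 5 called higher, summed to 771 to 806 for Col-0, 704 to 822 for inactive FL and between 883 and 1348 in the other 3 lines. These counts stand beside 56.4% of all features called higher. After centring, 1 root marker was called higher and 4 lower, and 1 vascular marker higher and 1 lower. Of the epidermis and guard cell markers 0 were then higher and 9 lower, and of the seed storage markers 0 and 2. Of all features 10.1% were then higher and 27.7% lower. The part of tissue make-up in the shared rises was not tested.

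**Figure D3:**
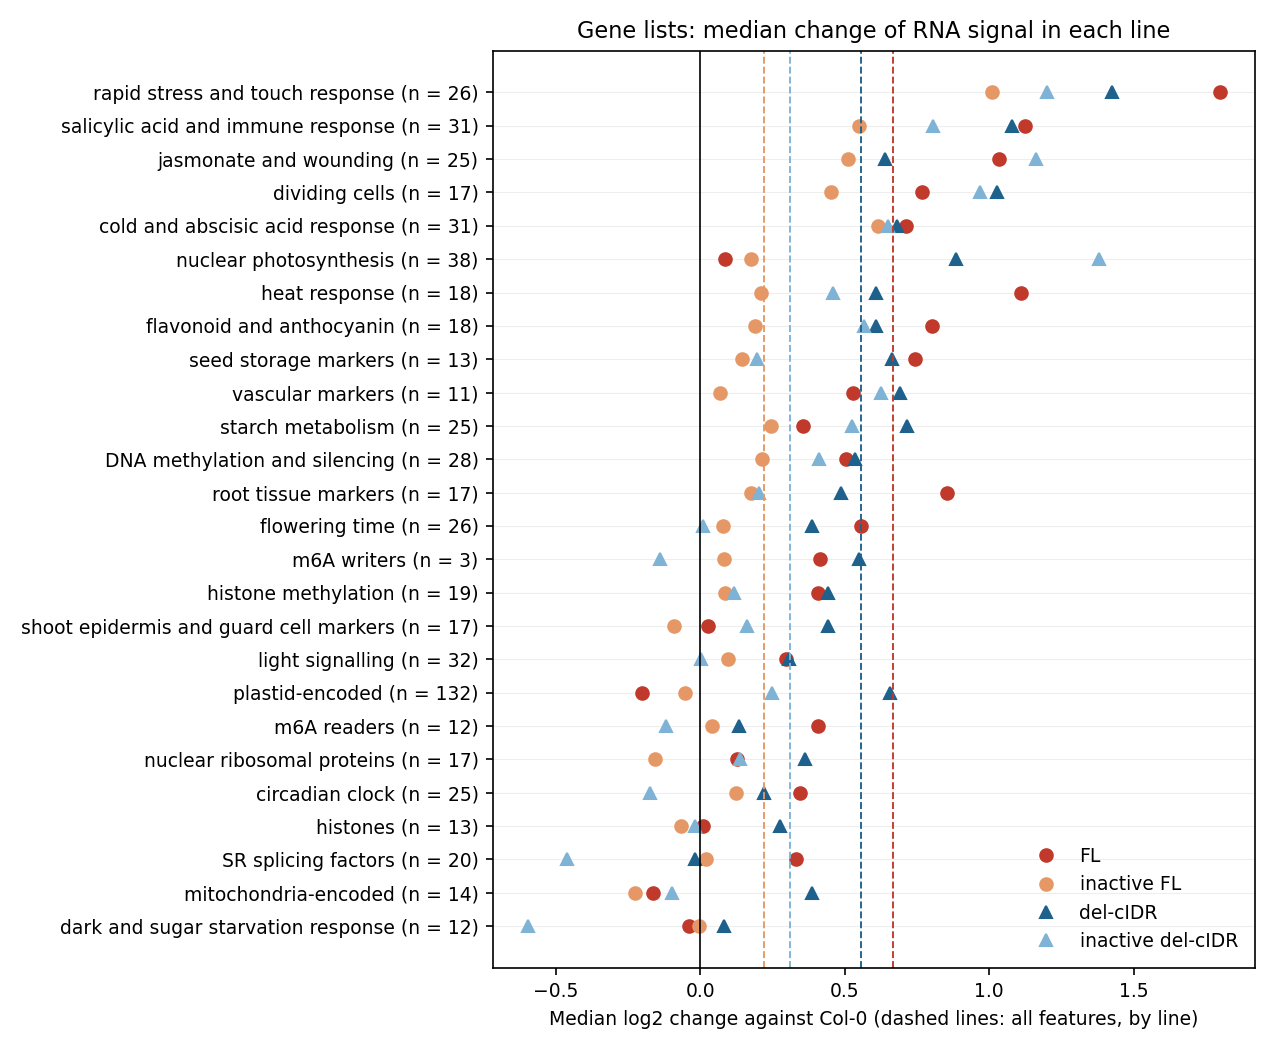
Median log2 change of RNA signal against Col-0 (horizontal axis) of each gene list (vertical axis, n tested genes) in each line, with dashed lines at the median of all 30613 features for the same line. The rapid stress and touch list lies right of the dashed line of each line, and the dark and sugar starvation list lies left of it.

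Of the genes of RNA methylation, 3 writers and 12 YTH readers were tested, and the other writers and the ALKBH9 and ALKBH10 erasers were not analysed here. Of the 3 writers, MTA, FIP37 and FIO1, 0 had the same sign in all 4 lines, and MTA, the catalytic subunit, had changes of 0.50, 0.06, 0.55 and -0.01. Of the 12 readers, 3 were called higher (ECT6, ECT5 and ECT11) and 1 lower (ECT2), with a median of 0.13. ECT6 stood at 69.7 and 93.7 for Col-0, 209 and 172 for FL, 115 and 132 for inactive FL, 142 and 159 for del-cIDR, and 169 and 172 for inactive del-cIDR, a change of 0.90 ± 0.118 (limma adjusted p = 7.91e-09). ECT5 and ECT11 rose by 0.25 and 0.36, less than the overall median, and both were negative after centring, at -0.28 and -0.17. ECT2, the main reader of seedlings, fell by 0.33 on average, with -0.81 for inactive del-cIDR, while FL, at 6981 and 6977, was level with the 6989 and 6970 of Col-0.

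Among silencing genes, 24 of 28 of DNA methylation and small RNA pathways were called higher, with a median of 0.44, close to that of the whole table. After centring 2 of the 28 were called higher and 10 lower. With the line as a random block 0 were called (9 higher at an unadjusted p under 0.05 in limma). CHR1, the chromatin remodeller also known as DDM1, rose by 1.12 ± 0.136, and MET1, the CG methyltransferase, by 0.51 ± 0.0666, or -0.02 after centring. Of 19 histone methylation genes 10 were called higher and 1 lower, and after centring 0 were higher and 10 lower. With the line as a random block 0 were called (2 higher and 1 lower at an unadjusted p under 0.05 in limma). CLF, a Polycomb methyltransferase, rose by 0.51 ± 0.0713, or -0.02 after centring.

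The remaining lists ran as follows. Starch metabolism had 19 of 25 genes called higher (median 0.45), and 1 higher and 7 lower after centring, among them GBSS1, granule-bound starch synthase, at 0.96, and ISA3, a debranching enzyme, at 0.73. Flavonoid and anthocyanin genes had 13 of 18 called higher (median 0.59), and 0 higher and 1 lower after centring. TT4, chalcone synthase, had changes of 0.66, 0.18, 1.12 and 2.82, and its inactive FL libraries, 22.05 and 48.4, overlapped with the 34.8 and 23.2 of Col-0. Flowering time genes had 11 of 26 called higher (median 0.27) and light signalling genes 10 of 32 higher and 1 lower (0.16). After centring 14 of the 26 and 23 of the 32 were called lower. Histone genes had 4 of 13 higher and 1 lower (0.00), nuclear ribosomal protein genes 2 of 17 higher (0.11), and SR splicing factors 0 of 20 in either direction by limma (-0.05), also 0 with a shared sign at an unadjusted p under 0.05. After centring, which called 27.7% of all features lower, 9 of the 13 histone genes, 13 of the 17 ribosomal protein genes and 18 of the 20 SR genes were called lower.

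Falls common to all lines were rarer. The locus AT3G01345 had the largest. It stood at 311 and 283 for Col-0, 41.0 and 41.4 for FL, 43.9 and 70.2 for inactive FL, 9.81 and 17.3 for del-cIDR, and 8.44 and 9.496 for inactive del-cIDR. The del-cIDR pair was lower than the FL pair, and all 4 were far below Col-0. Its changes were -2.66, -2.28, -3.91 and -4.25 (average -3.27 ± 0.201, limma adjusted p = 2.81e-20), folds from 4.84 to 19.1. It was the only feature called lower whose change exceeded 1 in size in every line.

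The other 11 genes by the same rule fell by smaller amounts, with a smallest-of-4 change of 0.71 to 0.36 in size, and BBX14 was the next in order, also at 0.36. JMJD5, a jumonji histone demethylase tied to the clock, stood at 1041 and 1009 for Col-0, 774 and 735 for FL, 751 and 823 for inactive FL, 398 and 375 for del-cIDR, and 113 and 126 for inactive del-cIDR. The fall was graded over the lines, -0.44, -0.38, -1.39 and -3.03. COL9, a CONSTANS-like regulator of flowering, stood at 1219 and 1312 for Col-0, 824 and 845 for FL, 839.7 and 893 for inactive FL, 778 and 804 for del-cIDR, and 241 and 203 for inactive del-cIDR, so that 3 lines lay together and the fourth far below.

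ERD5, the proline dehydrogenase of mitochondria, stood at 5740 and 5699 for Col-0, 4498 and 4292 for FL, 3353 and 3640 for inactive FL, 3317 and 3543 for del-cIDR, and 1747 and 1689 for inactive del-cIDR. It fell by 0.89 on average (SE 0.0372, limma adjusted p = 1.4e-27). AT1G72430, the auxin-responsive gene SAUR78, fell by 0.65 and AT5G25240 by 0.60, with no overlap between transgenic and Col-0 libraries. All 12 genes stayed called lower without any 1 library, and also after centring, which enlarges every fall and is no check of them. With the line as a random block 6 of the 12 lost the call, among them JMJD5 (adjusted p = 0.101 in limma) and COL9 (0.097).

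Of the 12, 3 were plastid-encoded and 3 lay on chromosome 2 in a region with organelle-derived sequence. How reads of duplicated plastid genes were assigned is not given in the sources used here. The plastid-encoded ATCG01230, ATCG01240 and ATCG00920 fell by 0.85, 0.67 and 0.94. ATCG00920 stood at 724137 and 727535 for Col-0, 351438 and 373079 for FL, 352849 and 358468 for inactive FL, 347161 and 351688 for del-cIDR, and 455344 and 446910 for inactive del-cIDR. Its inactive del-cIDR libraries were the highest of the transgenic ones, and its call was lost with the line as a random block (limma adjusted p = 0.397). Other plastid transcripts went the other way: ATCG01190 stood at 1596 and 1620 for Col-0 and rose by 0.20, 0.51, 1.28 and 1.50 for FL, inactive FL, del-cIDR and inactive del-cIDR.

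AT2G07641, AT2G07707 and AT2G05225 lie near the centromere of chromosome 2, where a copy of much of the mitochondrial genome sits, so that reads of nuclear and mitochondrial copies may not be separable. AT2G07707 stood at 1050 and 1077 for Col-0, 508 and 482 for FL, 409 and 439 for inactive FL, 796 and 829.8 for del-cIDR, and 655 and 676 for inactive del-cIDR. The mitochondria-encoded ATMG00180 had the same order of lines, with changes of -0.66, -0.93, -0.10 and -0.40. Of the 142 features whose identifiers begin with AT2G07, 10 were called lower in all lines (7.04%, beside 1.1% of all features) and 68 higher (47.9%, beside 56.4%). The longest run of neighbouring genes called lower was 3, from AT2G07689 to AT2G05235.

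**Figure D4:**
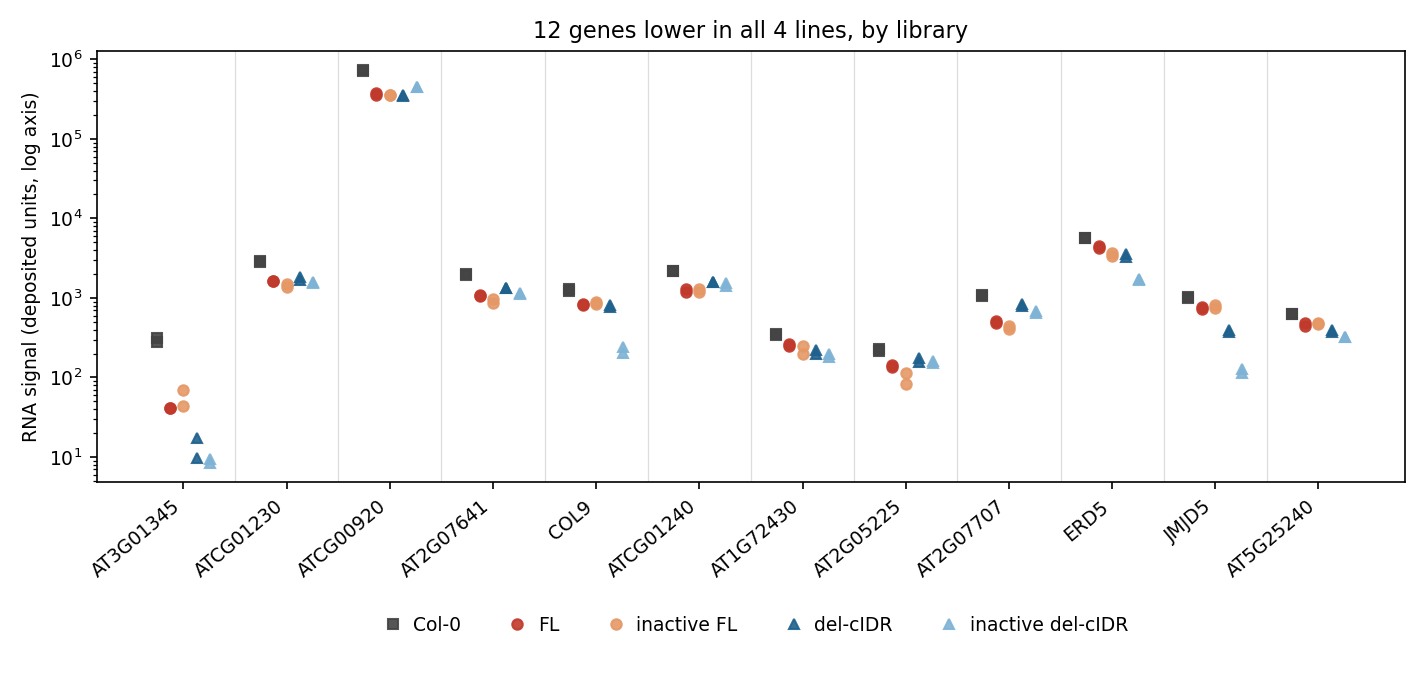
RNA signal per library (vertical axis, deposited units, log scale) of the 12 genes with the largest fall common to all 4 lines (horizontal axis), 2 libraries per genotype. AT3G01345 drops from 311 and 283 to between 8.44 and 70.2, while in JMJD5, COL9 and ERD5 the inactive del-cIDR points lie below those of the other lines.

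The mixed-sign features show which lines broke the rule. Of the 10307 features that did not have 1 sign, 6844 were lower than Col-0 for inactive del-cIDR and 6525 for inactive FL, but 1265 for FL and 1524 for del-cIDR.

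The m6A ratio was lower in all 4 lines for nearly the whole table. Of 2291 peaks, 1590 were called lower with a shared sign (69.4%) and 0 were called higher, also 0 at an unadjusted p under 0.05 in limma. The median change of all peaks was -1.001 for FL, -0.97 for inactive FL, -1.52 for del-cIDR and -0.95 for inactive del-cIDR, and -1.11 on average. The medians of the ratio per library were 6.60 and 7.09 for Col-0, 2.23 and 4.62 for FL, 2.97 and 3.63 for inactive FL, 2.63 and 1.67 for del-cIDR, and 2.51 and 4.57 for inactive del-cIDR. Every transgenic library was below both Col-0 libraries, with a difference of -1.07 between the groups (exact permutation test over libraries, two-sided, p = 0.0222, the smallest possible, again against 0.2 with the genotype as the unit), but the 2 libraries of FL, and of inactive del-cIDR, also stood far apart.

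After library medians were set equal, 0 of 2291 peaks were called by limma in either direction, with 238 lower and 97 higher in all lines at an unadjusted p under 0.05. No peak passed the test for a fall beyond that of the library medians. With the line as a random block, 1605 (70.1%) were called lower. Taken alone, del-cIDR gave 1829 calls (79.8%), inactive del-cIDR 551 (24.1%), FL 521 (22.7%) and inactive FL 500 (21.8%), and 320 (14%) were called in each of the 4. The ratio of all 8 transgenic libraries lay below both of Col-0 in 1611 peaks (70.3%). The fall was largest in del-cIDR for 1295 of the 1590, with a median there of -1.69 against -1.15 for FL and -1.12 for each of the inactive lines.

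These counts rest on both Col-0 libraries: without the first Col-0 IP library 442 peaks were called, and without the second 382. In a separate fit of only the 1146 peaks at or above the median level, 242 were called lower. With the 5th percentiles set equal, 39 of 2187 peaks were called lower and 12 higher.

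The fall was larger at peaks with a low ratio. The median average change was -1.88 in the lowest of 10 level classes and -0.86 in the highest, and 229 of 230 peaks were called in the lowest class against 87 of 229 in the highest. The level is the mean over all 10 libraries, which holds the fall itself. Of the 21 mitochondrial peaks 18 were called lower, with a median of -1.85, and of the 23 plastid peaks all 23 were called, with a median of -1.30.

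Named peaks, those with the largest smallest-of-4 fall at or above the median level, lay in 10 genes and at 2 places not assigned to a single gene. Coordinates are those of the files (TAIR10), and no annotation of exons or UTRs was used here. The peak at Chr1:24476381-24476581 in RK2, a receptor kinase gene, had a ratio of 9.30 and 14.0 for Col-0, 2.13 and 2.83 for FL, 2.25 and 1.00 for inactive FL, 1.84 and 2.46 for del-cIDR, and 1.69 and 4.49 for inactive del-cIDR. All 8 transgenic libraries lay below both of Col-0, and the changes were -1.99, -2.53, -2.16 and -1.83 (average -2.13 ± 0.442, limma adjusted p = 1.38e-05).

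The peak at Chr5:23637652-23638010 in TAF15b, a TBP-associated factor, had 10.996 and 14.7 for Col-0, 2.50 and 4.94 for FL, 2.66 and 4.36 for inactive FL, 1.38 and 0.755 for del-cIDR, and 2.39 and 4.41 for inactive del-cIDR. The del-cIDR libraries were the lowest, but a difference among lines was not called (limma adjusted p = 0.432). The peak at Chr3:23393264-23393466 in AT3G63340 was alike, with -1.62, -2.15, -3.15 and -1.74.

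The peak at Chr5:1416910-1417284, not assigned to a single gene, had the most even fall. Its ratio was 13.7 and 10.0 for Col-0, 2.38 and 4.64 for FL, 2.70 and 4.70 for inactive FL, 3.29 and 2.75 for del-cIDR, and 2.60 and 4.18 for inactive del-cIDR, with changes of -1.65, -1.57, -1.79 and -1.67. In GRL, a subunit of the SCAR/WAVE actin complex, the peak at Chr2:14795892-14796190 showed the spread within lines, with 9.62 and 9.92 for Col-0 but 1.14 and 6.09 for FL and 1.22 and 6.26 for inactive del-cIDR.

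The other 7 peaks lay in AT5G11680, AT1G18030, SEC1A (a Sec1-type secretion protein), DGK2 (a diacylglycerol kinase), AT4G32790 and BSL1 (a phosphatase of brassinosteroid signalling) and at Chr2:4011708-4012337, with averages from -1.90 to -1.61. The smallest-of-4 change of the last of the 12 was 1.43 in size, and that of the next peak, in AT3G17800, 1.40. All 12 lost their call after centring, 8 of 12 with the 5th percentiles set equal, and 3 of 12 without either Col-0 library.

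**Figure D5:**
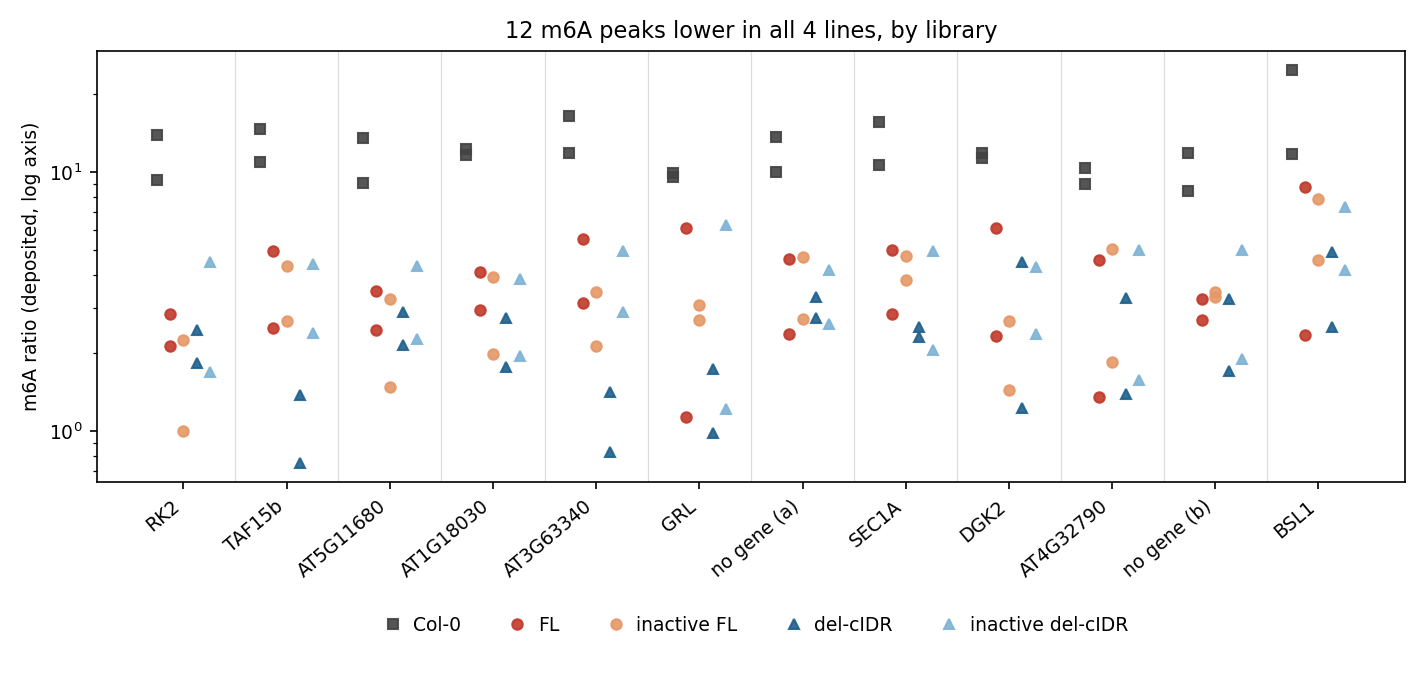
Deposited m6A ratio per library (vertical axis, log scale) of the 12 peaks with the largest fall common to all 4 lines (horizontal axis, by host gene), 2 IP libraries per genotype. Peaks marked no gene were not assigned to a single gene. The Col-0 squares lie between 8.497 and 24.7, and the paired points of FL and of inactive del-cIDR are often far apart, as 1.14 and 6.09 in GRL.

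Peaks in genes of the lists were counted likewise, beside the 69.4% of all peaks called lower and the overall median of -1.11. Of 15 peaks in nuclear photosynthesis genes 14 were called lower, with a median of -2.03. Their median ratio, 1.02, lies in the lowest level class, where 229 of 230 peaks were called with a median of -1.88. The peak at Chr1:7042890-7043109 in DRT112, plastocyanin, had 3.35 and 2.95 for Col-0, 0.318 and 0.547 for FL, 0.262 and 0.313 for inactive FL, 0.180 and 0.181 for del-cIDR, and 0.197 and 0.317 for inactive del-cIDR. All 8 transgenic libraries lay far below both of Col-0. The 2 peaks of COR47, a dehydrin, fell by 2.09 and 2.03, and that of PHOT1, a blue light receptor, by 2.19.

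SNC1, an immune receptor gene of the NLR class, held 3 peaks, all called lower. Their median ratio, 0.70, also lies in the lowest level class, where 229 of 230 peaks were called. The one at Chr4:9501398-9501799 had 2.59 and 2.75 for Col-0, 0.120 and 0.931 for FL, 0 and 0.276 for inactive FL, 0.0683 and 0.148 for del-cIDR, and 0 and 0.378 for inactive del-cIDR. The third, at Chr4:9503358-9503582, differed among lines (changes of -1.48, -2.33, -2.21 and -1.94, limma adjusted p = 0.00557). Peaks of 1 gene share its RNA and are not independent.

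Of the 2 peaks in reader genes, that of ECT7 fell by 1.68 (limma adjusted p = 0.00111) and that of ECT3 by 0.66, which did not pass (adjusted p = 0.126). In regulators of flowering 6 of 9 peaks were called lower, among them that of AGL20, also called SOC1, a floral integrator, with -0.93, -1.33, -2.19 and -1.52. In histone methylation genes 5 of 8 were, among them ELF6, an H3K27 demethylase, at -1.66. The peak in JMJD5 fell by 1.66, that in ERD5 by 2.22 and that in AT2G07707 by 1.91, all 3 in genes whose RNA was also lower. Those of ERD5 and AT2G07707 lay in the lowest level class, where the median change was -1.88.

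A difference in size among lines was called for 23 peaks (1%), 22 of them shared falls, against 72.8% of RNA features. The peak at Chr3:768026-768229 in DCL2, a Dicer-like RNase, had 7.46 and 8.79 for Col-0, 4.55 and 6.80 for FL, 4.05 and 2.64 for inactive FL, 0.941 and 0.771 for del-cIDR, and 2.57 and 11.7 for inactive del-cIDR. The second inactive del-cIDR library exceeded Col-0 and the first did not. The changes were -0.50, -1.18, -2.63 and -0.49.

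Peaks that broke the common sign numbered 66. Of these, 35 were higher than Col-0 for inactive del-cIDR, 19 for FL, 19 for inactive FL and 2 for del-cIDR. The 3 that were higher in all 4 lines lay at Chr2:5099964-5100245 in AT2G12510, at Chr2:5799617-5799866 and at Chr3:12670158-12670493. They did not pass (limma adjusted p = 0.149 to 0.263). The last had 7.36 and 5.22 for Col-0, 22.2 and 7.25 for FL, 14.1 and 4.91 for inactive FL, 14.2 and 10.6 for del-cIDR, and 11.6 and 4.29 for inactive del-cIDR, so its groups overlapped.

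The RNA of host genes was compared with their peaks as a description. Of 2021 peaks in a tested gene, 1382 were called lower, and the RNA of the host was called higher for 604 of these (43.7%) and lower for 36 (2.6%). Of the other 639 peaks the host was higher for 255 (39.9%) and lower for 6 (0.939%). Across the 2021 peaks, which share libraries and in part genes, Spearman's rho between the average m6A change and the average RNA change was -0.06. Of the 10 hosts of named peaks, the RNA of DGK2 rose by 1.69, those of 7 others were called at averages of 0.11 to 0.57 (TAF15b, at 0.11, without a shared sign), and those of AT3G63340 (-0.04) and SEC1A (0.06) did not pass.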

How the data were processed

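Chromatin-associated RNA of 5 Arabidopsis genotypes was measured in 10 input and 10 IP libraries, 2 of each per genotype. The authors deposited 1 table of input signal per gene or transposable element and 1 table of an m6A ratio per peak, and how each was scaled is not stated beyond the spike-ins in the labels. Per the submitters' processing notes, the tools were HISAT2, featureCounts, MACS2, bedtools, fastp, Picard and SAMtools, with the TAIR10 build, without roles or versions. Peaks are 1 set for all libraries. Depth is unknown, so precision rests on the 2 libraries of each genotype.

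Spike-in rows were left out, and values were taken as log2(value + pseudocount), where the pseudocount is the 5th percentile of the values above 0 (6.94 for the signal and 0.542 for the ratio). Features had to reach it in at least 2 libraries, which removed 0. limma 3.58.1 in R 4.3.3, with a trend in the prior variance, fitted 5 group means and tested the mean of the 4 lines against Col-0 and, by a moderated F test, differences among lines, each adjusted by Benjamini-Hochberg over the table. Medians per library were compared by an exact permutation test. The code was tested on simulated data. Tables were handled in Python 3.11.15 with pandas 2.3.3.

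Named are, per table and direction, the 12 called features with the largest smallest-of-4-lines change, a shared sign, no overlap between transgenic and Col-0 libraries and a mean at or above the median. Fewer than 5 peaks qualified as higher, so those of shared sign are given as not passing. All matched writers and readers and the 4 genes of smallest p in every other list were also eligible. Features next in that order were named for comparison. Of 680 list names, 649 matched the RefSeq gene table (TAIR10.1, used for names and kinds) and 640 had RNA values; other names were not analysed here. A peak was given to a gene only where a single gene held at least 50 percent of its length. Peaks without a host may therefore lie in several genes or in none. The lines and the gene lists were chosen with earlier results of these data known. Alternatives covered pseudocount, level filter, scaling, variance trend, treatment of the line, a replicate block and left-out libraries. Aligning 5th percentiles, leaving out both FL libraries and leaving out the second FL and second inactive del-cIDR libraries together were added after seeing the data.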

Additional observations from a re-analysis of the deposited data

Results flagged for a closer look

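For 18 named features the moderated F test of limma called a difference among the 4 lines and the largest and smallest log2 changes against Col-0 lay at least 1 apart. The distance was 2.71 for COR27, 2.65 for JMJD5 and 1.94 for COL9, all 3 lowest in inactive del-cIDR. It was 1.35 for ERD5, also lowest there, and 1.98 for AT3G01345, where both del-cIDR lines were lower than both FL lines.

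Among genes that were higher than Col-0, inactive del-cIDR had the largest change for TT4 (distance 2.64), LHCB3 (1.74), CAB2 (1.54), GBSS1 (1.32), ATCG01190 (1.305), OPR3 (1.01) and HIK (1.00). The del-cIDR line had the largest change for ISA3 (1.12), CBF2 (1.08), LTI78 (1.06), FBS1 (1.06) and CBF1 (1.03). For the m6A peak in DCL2 the distance was 2.14, with the lowest ratio in del-cIDR.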

How the results depend on the processing

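RNA features called higher in all lines (17252 of 30613) numbered 7582 of 15307 in a separate fit of only the features at or above the median level. They numbered 3104 with library medians centred, 5409 centred on nuclear genes and 10808 of 29551 with 5th percentiles aligned. In 2 groups they numbered 5039, with the line as a random block 667 and over line means 513. Those called in each line numbered 3792. With no test applied, 10913 of all features lay above Col-0 without overlap, 10715 of them among the 17252. Those called lower (336) numbered 8495 and 5408 with the centrings, 26, 11 and 6 in the last 3 of these fits, and 89 called in each line. Without both FL libraries they numbered 683, where only the remaining lines needed a shared sign. With no test applied, 199 of all features lay below Col-0 without overlap, 193 of them among the 336. Features that differed among lines (22288 of 30613) numbered 13521 of 15307 in the fit of only features at or above the median level. Centred on nuclear genes, 14847 of 30613 differed. Leaving out 1 library gave 11650 to 18469 higher, 294 to 356 lower and 17431 to 23057 that differed.

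Peaks called lower (1590 of 2291) numbered 242 of 1146 in the separate fit of only peaks at or above the median level. They numbered 0 under either centring, 39 of 2187 with 5th percentiles aligned and 320 called in each line. Leaving out 1 library gave 382 to 2057, the lowest without the second Col-0 library. Peaks called higher (0) numbered 12 with 5th percentiles aligned, 3 without the second FL and second inactive del-cIDR libraries, and 0 to 2 without 1 library. Peaks that differed among lines (23) numbered 15 with the higher pseudocount and 0 in the fit of only peaks at or above the median level. They numbered 0 under either centring, 0 without a variance trend and 3 under each of the other 2 settings. They ranged from 10 to 116 without 1 library, with 116 without the first and 71 without the second FL library.

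The difference of library medians ranged from 0.487 to 0.581 for RNA and from -1.15 to -0.979 for m6A without 1 library, where the exact permutation p was 0.111 without either Col-0 library, the smallest possible then. For RNA it was also above the threshold, at 0.0556, without any 1 of the FL or del-cIDR libraries, where 0.0278 was possible. With medians centred, the change of MTA was -0.26, of ECT11 -0.17, of ECT5 -0.28, of MET1 -0.020, of CLF -0.018 and of the ECT3 peak 0.41. Centred on nuclear features they were -0.11 for MTA, -0.022 for ECT11, -0.14 for ECT5 and 0.41 for the ECT3 peak, which was 0.77 with 5th percentiles aligned. The cause of these shifts was not tested.

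Across features, deviations of same-numbered libraries correlated at -0.04 to 0.10 (RNA) and -0.23 to 0.35 (m6A) over 10 pairs of groups. A correlation leaves out a shift of a whole library, so it cannot settle whether replicate numbers pair the libraries. A replicate block gave 17682 features higher, 335 lower and 1650 peaks lower, with 23230 features and 26 peaks that differed among lines. Unknown depth and 2 libraries per genotype limit all of these counts.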
